A study of Capra hircus with 29 samples.

Results

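Amino acid transporters were taken from the oocyte table as the genes whose symbol placed them in the SLC1A, SLC3A, SLC6A, SLC7A, SLC36A, SLC38A or SLC43A family. This rule found 57 of 21343 genes, and no member shared its symbol with another gene. Of the 57, 26 were above 0.5 FPKM (fragments per kilobase of transcript, scaled to the fragments sequenced in a sample) in at least 4 of 29 samples, and the values below are mainly of these. The samples were oocytes of Ji'ning grey goats from a high fertility group, with litters of more than 3 kids, and a low fertility group, with litters of fewer than 2, as the deposited description has it. The study's methods count both limits as within their groups. In the high fertility group, HLO, HMO and HSO were oocytes of large, medium and small follicles, and LLO, LMO and LSO were their counterparts in the low fertility group. There were 5 samples in each group and 4 in HSO, which lacks number 2. The age of the goats is not given in the labels, which name no treatment beyond the group. Oocytes were pooled by follicle stage before samples were taken, at least in the high fertility group, and which goats contributed to a sample is not recorded. P-values therefore measure the spread between these samples, which may be technical.

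The oocyte label was checked against marker genes. All 9 oocyte markers in the table were above the 0.5 FPKM floor in at least 4 samples, ZP3, a protein of the egg coat, was the most abundant with a median of 1274 FPKM, and the 9 summed to 432 to 9096 FPKM per sample. Of 10 granulosa and cumulus cell markers in the table, 4 passed the floor, the list summed to 1.66 to 9.60 FPKM, HAS2 was the most abundant at a median of 1.45 FPKM, and AMH and HSD17B1 were listed at 0 in every sample. The highest granulosa sums were 9.60 in LMO-5 and 8.69 in LSO-5. Of 3 theca cell markers, 1 passed, STAR, at a median of 18.0 FPKM, while INSL3 was listed at 0 in every sample and LHCGR reached 0.0460. Of 5 leukocyte markers and 2 erythrocyte markers in the table, 0 passed, CD68 and ALAS2 were the most abundant, CD74 was listed at 0, and the sums reached 0.672 and 0.464 FPKM. In the table, 2 of 4 endothelial markers passed, with a sum of at most 2.33 FPKM, KDR as the most abundant and CDH5 at 0, and 1 of 5 enterocyte markers passed, with a sum of at most 4.55 FPKM, EPCAM as the most abundant and FABP2 at 0. Of 3 fibroblast markers, 2 passed, and the list summed to 2.91 to 17.4 FPKM. DCN led them at a median of 7.26 FPKM, COL1A2 had a median of 1.58 and was above 0.5 FPKM in 28 samples, and COL1A1 reached 0.0391. The share of RNA from other cells was not measured, and in such bulk samples fewer cells of a type and less RNA per cell cannot be told apart.

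Before the results, some samples stood apart. LMO-5 and LSO-5, labelled with different follicle stages, were nearer to each other than any other of the 406 pairs of samples. Across 9692 genes their log2(FPKM + 1) values correlated at r = 0.993 with a median absolute difference of 0.10, against r = 0.982 and 0.18 for the next pair, HSO-3 and LMO-3. Genes within a sample are not independent replicates, so these are descriptions. Over the 26 members, LMO-5 and LSO-5 differed by at most 0.26 on the log2 scale. The sum of FPKM over all genes was lowest in LMO-2, at 222697, and 347806 to 490048 in the other samples. LLO-2 had the lowest sum of oocyte markers, 432 FPKM against a median of 2457. It also had the fewest genes above 0.5 FPKM, 6646 against a median of 7980. How far this bears on the values of members in LLO-2, the lowest sample for several of them, was not tested. The table gives no counts and no read depth was used here, so no counting interval is given. Values below are listed in the order of the sample numbers 1 to 5, without number 2 in HSO.

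Amino acid transporters carry amino acids across the plasma membrane or out of lysosomes, and several families do so by exchange or together with sodium or protons. The SLC7 family holds cationic amino acid transporters that work alone and light chains that reach the membrane only when bound to a heavy chain, SLC3A2 or SLC3A1. Growing oocytes take up some amino acids themselves and receive others, such as alanine and histidine, from cumulus cells through gap junctions, and in mouse oocytes glycine, carried by SLC6A9, also serves to set cell volume.

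The members differed widely in level, and a cationic amino acid transporter led them. SLC7A3 was the highest member in 22 of 29 samples and SLC6A5 in 5, while SLC7A6OS led in LLO-5 and SLC3A2 in LMO-2. By family, 9 of 12 SLC7A members passed the floor of 0.5 FPKM in 4 samples, 6 of 18 SLC6A members, 5 of 11 SLC38A members, 2 of 2 SLC3A members, 2 of 4 SLC36A members, 1 of 7 SLC1A members and 1 of 3 SLC43A members. The summed FPKM of the SLC7A members had a median of 72.6 over samples, that of the SLC6A members 21.8, that of the SLC3A members 8.32 and that of the SLC38A members 6.69. In all 29 samples 9 members were above 0.5 FPKM: SLC7A3, SLC7A6OS, SLC6A5, SLC7A7, SLC3A2, SLC6A4, SLC7A11, SLC7A6 and SLC7A8. All 57 members together summed to 50.5 FPKM in LLO-3 up to 194 FPKM in LLO-4, with a median of 115, which was 0.0113 to 0.0485% of all FPKM. SLC7A6OS, which matched the rule by its symbol but is not a transporter, is in these sums. It is also in the count and the sum of the SLC7A members above, which are larger for it. Without it the sums of all members ran from 48.0 to 171 FPKM with a median of 91.8, and LLO-5 went from 131 to 75.7. The mean sum was 104 ± 51.4 FPKM (SD) in HLO and 116 ± 58.1 in LLO, 105 ± 37.2 in HMO and 116 ± 34.1 in LMO, and 121 ± 54.1 in HSO and 112 ± 39.0 in LSO (n = 5, and 4 in HSO). These ranges overlapped between all groups. Each sample had 13 to 24 members above 0.5 FPKM, the fewest in HLO-2, LLO-2 and LMO-3 and the most in LLO-4.

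The other 31 members did not pass. SLC38A2 was above 0.5 FPKM in 2 samples and SLC6A12 in 3, just under the limit of 4, and SLC43A3 was just inside it with 4. The other 29 never exceeded 0.5 FPKM, and SLC38A4, SLC38A5, SLC6A3, SLC6A18 and SLC7A4 were listed at 0 in every sample. Members with known uptake roles in other cells were among those near 0. SLC7A5, the large neutral amino acid light chain, reached 0.139 in HLO-5, and SLC7A1, a widely expressed cationic transporter, reached 0.174 in LSO-2. SLC6A9, the glycine transporter GLYT1, reached 0.116 in LLO-5 and was listed at 0 in 24 samples. SLC6A6, the taurine transporter, reached 0.0822 in HMO-2, and SLC38A1, a sodium-coupled glutamine transporter, 0.175 in HSO-4. SLC38A3, which cumulus cells express for uptake of histidine and alanine, reached 0.0875 in LSO-1, and the glutamate transporters SLC1A1, SLC1A2 and SLC1A3 reached 0.108, 0.101 and 0.0620 FPKM. SLC6A15, a neutral amino acid transporter, stayed at or below 0.352 FPKM but was above 0 in all 29 samples.

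**Figure D1:**
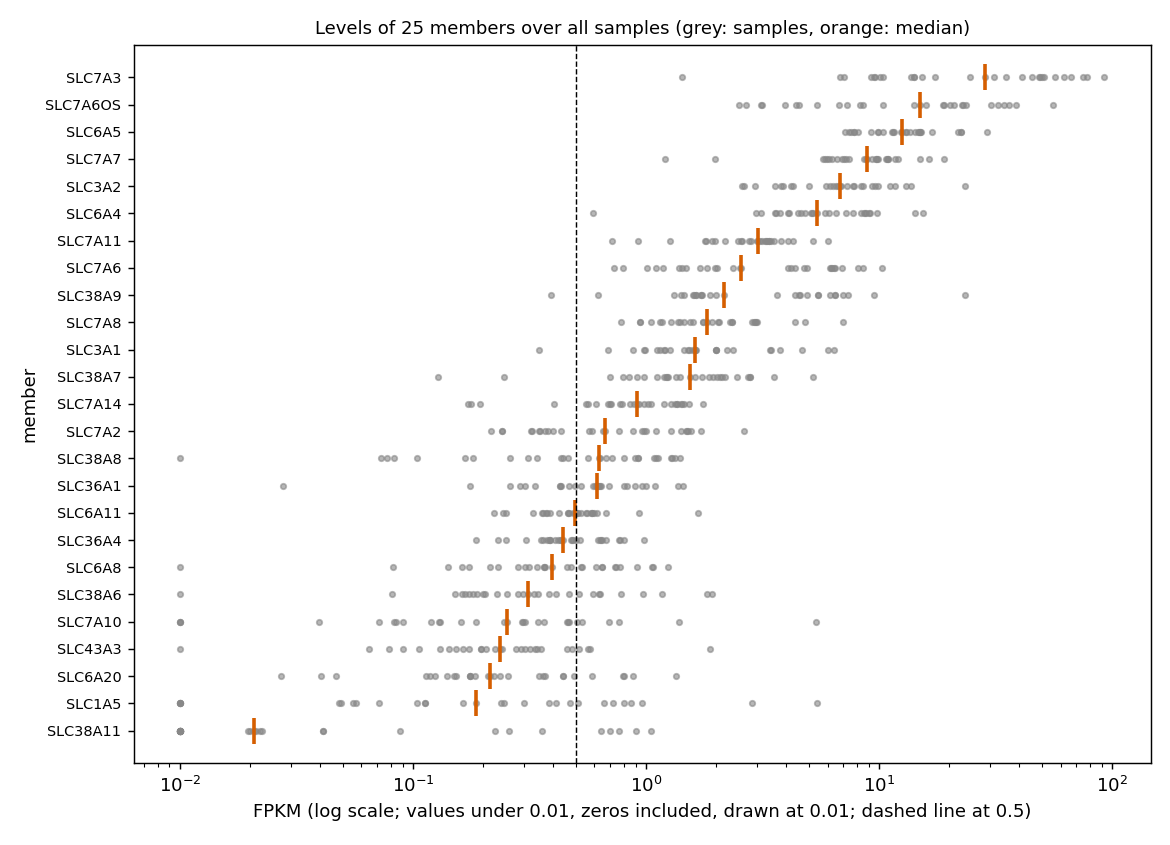
FPKM of 25 members above 0.5 FPKM in at least 4 of 29 samples, on a log axis, ordered from top to bottom by median; each grey point is a sample and each orange bar the median over 29 samples. SLC7A3 has the highest median, 28.4 FPKM, and spreads from 1.42 to 92.5, while SLC38A11 has the lowest, 0.0207.

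Among the cationic amino acid transporters, SLC7A3 (CAT3), which carries arginine and lysine, had the highest median of all members, 28.4 FPKM, above the medians of 94.5% of all genes. In large follicles, SLC7A3 was at 48.7, 9.61, 14.1, 9.22 and 78.3 FPKM in HLO and at 45.4, 1.42, 10.1, 92.5 and 6.82 FPKM in LLO. In medium follicles, SLC7A3 was at 57.0, 13.7, 17.4, 28.4 and 66.5 FPKM in HMO and at 31.1, 7.05, 14.1, 50.9 and 48.9 FPKM in LMO. In small follicles, SLC7A3 was at 41.2, 10.4, 24.5 and 62.4 FPKM in HSO and at 35.1, 9.46, 15.2, 75.0 and 49.9 FPKM in LSO. Values spread widely within groups: in every group the samples numbered 2 and 3 were at 17.4 FPKM or less and number 1 at 31.1 or more, and the groups overlapped at each stage. LLO held both the lowest and the highest value, LLO-2 and LLO-4. SLC7A3 exceeded the next member, SLC7A6OS, in 26 of 29 samples. The table also holds 16 rows described as cationic amino acid transporter 3 or 3-like whose symbols fall outside the rule. Of these, 0 passed the floor, 8 were listed at 0 in every sample, and their sum ran from 0.00920 to 2.53 FPKM with a median of 0.299. The authors used reads with a unique match to the genome, so reads that fit several near copies were not used. How far this lowered the level of SLC7A3 or its copies was not tested.

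SLC7A2 (CAT2), another cationic transporter, was at a lower level, with a median of 0.663 FPKM and 18 samples above 0.5. In large follicles, SLC7A2 was at 1.10, 0.379, 0.585, 0.766 and 1.48 FPKM in HLO and at 0.347, 0.242, 0.653, 1.5 and 1.41 FPKM in LLO. In medium follicles, SLC7A2 was at 0.368, 0.240, 0.566, 0.351 and 0.663 FPKM in HMO and at 0.976, 0.321, 0.397, 1.72 and 1.51 FPKM in LMO. In small follicles, SLC7A2 was at 1.27, 0.880, 0.994 and 2.62 FPKM in HSO and at 0.216, 0.432, 0.323, 0.961 and 1.56 FPKM in LSO. The highest value was in HSO-5 and the lowest in LSO-1, and number 5 was the highest sample in HLO, HMO, HSO and LSO. The groups overlapped at each stage. SLC7A14, a lysosomal relative of these transporters, was above 0.5 FPKM in 25 samples, with a median of 0.914. In large follicles, SLC7A14 was at 0.689, 1.19, 1.02, 1.34 and 0.933 FPKM in HLO and at 1.05, 0.402, 0.855, 0.552 and 0.177 FPKM in LLO. In medium follicles, SLC7A14 was at 0.979, 0.699, 1.45, 1.41 and 0.564 FPKM in HMO and at 1.28, 0.172, 1.76, 0.610 and 0.708 FPKM in LMO. In small follicles, SLC7A14 was at 1.52, 1.42, 1.36 and 0.791 FPKM in HSO and at 0.193, 1.35, 0.914, 0.886 and 0.775 FPKM in LSO. SLC7A14 was lowest in LMO-2, LLO-5 and LSO-1, all of the low fertility group, but the highest value, in LMO-3, was of that group too, and the groups overlapped at each stage.

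Of the heavy chains, SLC3A2 (CD98hc), which carries the light chains SLC7A6, SLC7A7, SLC7A8, SLC7A10 and SLC7A11 to the plasma membrane, had a median of 6.79 FPKM. In large follicles, SLC3A2 was at 13.0, 6.56, 6.16, 5.91 and 6.79 FPKM in HLO and at 6.34, 8.39, 4.25, 2.58 and 9.91 FPKM in LLO. In medium follicles, SLC3A2 was at 6.63, 13.7, 4.20, 2.63 and 3.57 FPKM in HMO and at 9.29, 23.3, 4.99, 11.1 and 7.81 FPKM in LMO. In small follicles, SLC3A2 was at 9.62, 6.88, 11.7 and 7.27 FPKM in HSO and at 2.92, 8.50, 3.88, 3.79 and 7.69 FPKM in LSO. LMO-2 was the highest of all samples, and LLO-4, HMO-4 and LSO-1 were the lowest. The groups overlapped at each stage. SLC7A7 (y+LAT1), which exchanges cationic for neutral amino acids, was the most abundant light chain among the members, with a median of 8.90 FPKM. In large follicles, SLC7A7 was at 9.69, 6.07, 7.45, 15.0 and 7.18 FPKM in HLO and at 5.86, 1.21, 5.99, 10.7 and 1.98 FPKM in LLO. In medium follicles, SLC7A7 was at 6.30, 10.9, 7.08, 5.72 and 6.59 FPKM in HMO and at 9.32, 18.9, 8.58, 12.0 and 9.90 FPKM in LMO. In small follicles, SLC7A7 was at 6.90, 8.78, 10.9 and 10.8 FPKM in HSO and at 16.4, 11.7, 9.67, 8.90 and 9.82 FPKM in LSO. It was lowest in LLO-2 and LLO-5 and highest in LMO-2. Of the 5 HMO samples, 4 lay below all LMO samples, while HMO-2 lay within them.

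SLC7A11 (xCT), the cystine and glutamate exchanger that feeds glutathione synthesis, had a median of 3.03 FPKM. In large follicles, SLC7A11 was at 2.82, 1.81, 2.75, 3.29 and 2.18 FPKM in HLO and at 3.55, 0.923, 3.22, 6.01 and 1.26 FPKM in LLO. In medium follicles, SLC7A11 was at 4.07, 1.97, 2.55, 3.78 and 3.45 FPKM in HMO and at 2.58, 0.71, 3.09, 3.03 and 3.35 FPKM in LMO. In small follicles, SLC7A11 was at 3.13, 2.98, 1.80 and 4.29 FPKM in HSO and at 2.47, 1.92, 3.36, 5.22 and 3.27 FPKM in LSO. Number 2 was the lowest sample in HLO, LLO, HMO, LMO and LSO, and LLO-4 the highest of all. The groups overlapped at each stage. SLC7A6 (y+LAT2), an exchanger like SLC7A7, had a median of 2.56 FPKM. In large follicles, SLC7A6 was at 4.75, 1.18, 2.02, 1.01 and 4.20 FPKM in HLO and at 4.89, 1.39, 0.798, 6.93 and 10.3 FPKM in LLO. In medium follicles, SLC7A6 was at 6.23, 1.42, 1.83, 2.36 and 6.26 FPKM in HMO and at 2.52, 1.49, 1.71, 6.45 and 6.39 FPKM in LMO. In small follicles, SLC7A6 was at 4.04, 1.10, 2.56 and 8.07 FPKM in HSO and at 4.37, 0.726, 1.98, 8.56 and 6.13 FPKM in LSO. It was at 2.52 FPKM or more in every sample numbered 1 or 5 and at 2.02 or less in every sample numbered 2 or 3, and groups overlapped at each stage.

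SLC7A8 (LAT2), a light chain for neutral amino acids, had a median of 1.83 FPKM. In large follicles, SLC7A8 was at 2.03, 1.45, 2.33, 1.83 and 2.96 FPKM in HLO and at 1.40, 4.79, 1.53, 0.945 and 4.36 FPKM in LLO. In medium follicles, SLC7A8 was at 0.944, 2.84, 1.05, 1.15 and 1.17 FPKM in HMO and at 1.91, 7.0, 1.28, 2.99 and 2.90 FPKM in LMO. In small follicles, SLC7A8 was at 1.59, 1.74, 2.35 and 2.29 FPKM in HSO and at 0.782, 2.04, 1.76, 1.37 and 2.94 FPKM in LSO. LMO-2, LLO-2 and LLO-5 were the highest, and LSO-1 the lowest. HMO-2 stood above the other HMO samples, which all lay below the lowest LMO sample. SLC7A10 (Asc-1), a transporter of small neutral amino acids, passed 0.5 FPKM in 6 samples and ranged from 0 to 5.38, the highest in LSO-1. Together, SLC7A5, SLC7A6, SLC7A7, SLC7A8, SLC7A10 and SLC7A11 summed to 8.30 to 29.4 FPKM. Their sum was 0.990 times that of SLC3A2 in LLO-2 and 10.1 times in LLO-4, with a median ratio of 2.57, and exceeded SLC3A2 in 28 of 29 samples. SLC7A7 made up 10.9% of the light chain sum in LLO-5 and 70.9% in LSO-2, with a median of 50.0%.

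SLC3A1 (rBAT), the heavy chain of the b(0,+) system for cystine and cationic amino acids, was above 0.5 FPKM in 28 samples and ranged from 0.348 to 6.42, the lowest in LLO-1 and the highest in LSO-1, with a median of 1.62. Its partner light chain is SLC7A9, a symbol that no member carried. The table describes LOC108635386 as the b(0,+)-type amino acid transporter 1, the usual name of that light chain. Its symbol is outside the rule, and it was added after its values were seen. In large follicles, LOC108635386 was at 25.9, 13.2, 10.3, 22.7 and 20.7 FPKM in HLO and at 33.7, 0.188, 14.8, 18.0 and 3.43 FPKM in LLO. In medium follicles, LOC108635386 was at 18.3, 18.3, 9.08, 9.38 and 27.3 FPKM in HMO and at 31.2, 41.6, 18.5, 45.9 and 41.6 FPKM in LMO. In small follicles, LOC108635386 was at 24.5, 15.1, 24.0 and 57.8 FPKM in HSO and at 22.0, 27.1, 14.7, 23.9 and 45.9 FPKM in LSO. Its median was 22.0 FPKM, between those of SLC7A3 and SLC7A6OS, with the lowest value, 0.188, in LLO-2 and the highest, 57.8, in HSO-5. In the comparison of HMO with LMO its log2 fold change was -1.12 (SE 0.39), with p-values of 0.0136 unadjusted and 0.392 adjusted in limma's moderated test with Benjamini-Hochberg adjustment. HMO-1, HMO-2, HMO-3 and HMO-4 were below all LMO samples and HMO-5 was within them. The log2 fold change was 1.07 (SE 0.78, unadjusted p 0.192) in HLO against LLO, 0.10 (SE 0.45, p 0.827) in HSO against LSO and 0.01 (SE 0.38, p 0.973) for high against low fertility over all stages, by limma, with adjusted p-values of 0.828, 0.972 and 0.998. The unadjusted p of the interaction was 0.0494, with an adjusted p of 0.631 by limma.

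SLC7A6OS matched the symbol rule but is not a transporter: its name places it on the strand opposite SLC7A6. In the RefSeq gene table of the ARS1.2 goat assembly, which may not be the build the authors used, both genes are direct neighbours that do not overlap. Whether the counting used strand is not given in the sources used here, so reads at their border could not be assigned with certainty. SLC7A6OS had a median of 15.0 FPKM and was above SLC7A6 in all 29 samples, by 1.70 times in HMO-3 to 10.6 times in HMO-2. In large follicles, SLC7A6OS was at 30.2, 4.54, 6.72, 5.39 and 23.5 FPKM in HLO and at 38.7, 8.54, 2.50, 22.7 and 55.5 FPKM in LLO. In medium follicles, SLC7A6OS was at 34.3, 15.0, 3.11, 8.27 and 15.8 FPKM in HMO and at 22.8, 3.92, 3.14, 19.0 and 20.1 FPKM in LMO. In small follicles, SLC7A6OS was at 32.3, 2.68, 14.1 and 35.9 FPKM in HSO and at 10.4, 7.28, 4.38, 18.8 and 20.8 FPKM in LSO. It was at 10.4 FPKM or more in every sample numbered 1 or 5 and at or below 6.72 in every sample numbered 3. The groups overlapped at each stage.

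Of the SLC6A family, SLC6A5 (GLYT2), a sodium and chloride-coupled glycine transporter best known from neurons, was the highest, with a median of 12.6 FPKM, and ranged less than SLC7A3. In large follicles, SLC6A5 was at 14.9, 13.0, 11.3, 15.2 and 14.7 FPKM in HLO and at 7.82, 29.0, 9.26, 7.58 and 21.8 FPKM in LLO. In medium follicles, SLC6A5 was at 7.45, 22.5, 11.5, 9.85 and 11.6 FPKM in HMO and at 14.9, 15.0, 13.0, 22.4 and 12.6 FPKM in LMO. In small follicles, SLC6A5 was at 10.4, 7.83, 14.2 and 12.4 FPKM in HSO and at 7.14, 16.9, 9.84, 8.12 and 13.5 FPKM in LSO. The highest value was in LLO-2 and the lowest in LSO-1, and HMO-2 and LMO-4 stood above the other samples of their groups. SLC6A5 exceeded SLC7A6OS, the member ranked just above it, in 15 of 29 samples, so their order does not hold sample by sample, and it exceeded SLC7A7 in 24. SLC6A4, the serotonin transporter and not an amino acid transporter despite its family, had a median of 5.42 FPKM. In large follicles, SLC6A4 was at 9.76, 4.07, 3.61, 5.12 and 6.09 FPKM in HLO and at 5.22, 0.589, 4.11, 15.5 and 4.50 FPKM in LLO. In medium follicles, SLC6A4 was at 7.17, 3.76, 3.10, 2.97 and 5.42 FPKM in HMO and at 6.54, 14.2, 4.81, 9.06 and 9.09 FPKM in LMO. In small follicles, SLC6A4 was at 8.59, 4.61, 7.73 and 8.31 FPKM in HSO and at 5.87, 5.15, 3.58, 8.80 and 8.67 FPKM in LSO. LLO-2 was the lowest and LLO-4 the highest. In medium follicles, HMO-2, HMO-3 and HMO-4 lay below all LMO samples and the groups overlapped through HMO-1 and HMO-5.

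The other SLC6A members were low. SLC6A11 (GAT3), a transporter of the amino acid GABA, ranged from 0.222 to 1.67 FPKM with the highest value in LMO-2 and was above 0.5 in 13 samples. SLC6A8, which carries creatine, ranged from 0 to 1.24 FPKM and was above 0.5 in 12 samples, the highest in LSO-1. SLC6A20, a proline transporter, ranged from 0.0272 to 1.35 FPKM and was above 0.5 in 5 samples, the highest in LLO-4.

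Among transporters of lysosomes, SLC38A9, the arginine sensor through which lysosomes signal to mTORC1, had a median of 2.15 FPKM and was above 0.5 in 28 samples. In large follicles, SLC38A9 was at 7.02, 1.41, 1.88, 1.59 and 6.44 FPKM in HLO and at 9.46, 0.391, 1.32, 4.33 and 4.59 FPKM in LLO. In medium follicles, SLC38A9 was at 5.44, 1.60, 1.71, 1.99 and 7.34 FPKM in HMO and at 3.64, 0.622, 1.74, 5.45 and 6.15 FPKM in LMO. In small follicles, SLC38A9 was at 4.92, 1.45, 2.15 and 23.4 FPKM in HSO and at 1.73, 1.64, 1.64, 4.54 and 6.47 FPKM in LSO. HSO-5 stood far above the other samples, and LLO-2 was the lowest. The samples numbered 2 and 3 were at or below 1.88 FPKM in all groups, and those numbered 5 at or above 4.59. SLC38A7, a lysosomal exporter of glutamine and asparagine, had a median of 1.53 FPKM and was above 0.5 in 27 samples. In large follicles, SLC38A7 was at 1.94, 0.981, 1.35, 2.46 and 1.39 FPKM in HLO and at 1.23, 0.246, 2.08, 1.53 and 0.128 FPKM in LLO. In medium follicles, SLC38A7 was at 0.700, 1.21, 1.12, 0.844 and 0.795 FPKM in HMO and at 2.17, 5.20, 1.74, 2.80 and 2.0 FPKM in LMO. In small follicles, SLC38A7 was at 1.24, 1.86, 2.78 and 1.20 FPKM in HSO and at 3.52, 2.74, 1.63, 0.910 and 2.11 FPKM in LSO. All 5 HMO samples, at 1.21 FPKM or less, were below all 5 LMO samples, at 1.74 or more, while in large and small follicles the high and low fertility groups overlapped. SLC36A1, a proton-coupled transporter of small neutral amino acids, was above 0.5 FPKM in 18 samples and ranged from 0.0276 to 1.44. SLC36A4, of the same family, was above 0.5 in 11 samples and ranged from 0.186 to 0.979.

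SLC38A8, a glutamine transporter, was above 0.5 FPKM in 16 samples with a median of 0.628. In large follicles, SLC38A8 was at 1.08, 0.0731, 0.438, 0.800 and 0.927 FPKM in HLO and at 1.27, 0.260, 0, 0.167 and 1.34 FPKM in LLO. In medium follicles, SLC38A8 was at 1.13, 0.711, 0.310, 0.0826 and 0.636 FPKM in HMO and at 0.669, 0.628, 0.180, 0.464 and 1.39 FPKM in LMO. In small follicles, SLC38A8 was at 0.897, 0.0775, 0.432 and 1.30 FPKM in HSO and at 0.341, 0.562, 0.104, 0.920 and 1.10 FPKM in LSO. LLO-3 was listed at 0, and number 3 was at 0.438 or less in every group. SLC38A6 ranged from 0 to 1.93 FPKM and was above 0.5 in 9 samples, and SLC38A11 ranged from 0 to 1.05, was above 0.5 in 5 samples and was listed at 0 in 12. Of the remaining families, SLC1A5 (ASCT2), a sodium-dependent exchanger of glutamine and other neutral amino acids, was above 0.5 FPKM in 8 samples and ranged from 0 to 5.38, with LSO-1 and LLO-4 highest. SLC43A3, which carries nucleobases and not amino acids, was above 0.5 FPKM in 4 samples and ranged from 0 to 1.87, the highest in LMO-2.

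**Figure D2:**
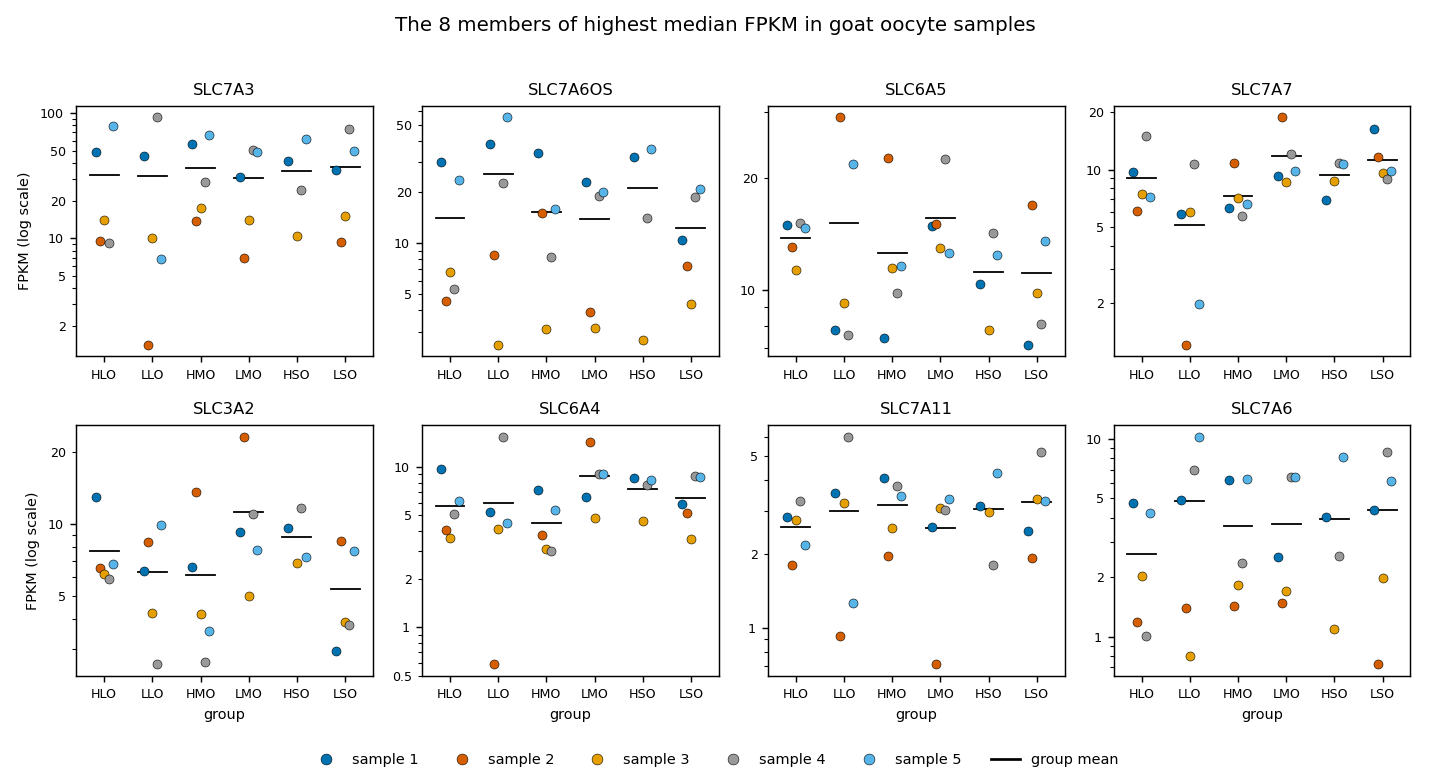
FPKM of the 8 members with the highest medians, on log axes, by group (HLO, LLO, HMO, LMO, HSO, LSO); each point is a sample, coloured by its number, and black lines are group means. SLC7A3 is at 17.4 FPKM or less in every sample numbered 2 or 3, SLC7A6 at 2.02 or less, and the groups overlap.

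Between HLO and LLO, no member passed the test. Of 19 members tested by limma's moderated test on log2(FPKM + 1), a scale that understates changes of low genes, 0 had an adjusted p under 0.05 and 0 an unadjusted p under 0.05. Over all 8328 genes the shares were 0% and 4.14%. The members' median log2 fold change of HLO over LLO was 0.05 against -0.09 for all genes, and the smallest adjusted p was 0.828. Groups without overlap were found for 0 of 19 members, against 0.432% of all genes, and for 0 of the 38 members too low to be tested here, against 0.307% of all such genes. Without genes at 0 in every sample of the comparison, the latter were 0 of 33 members and 0.524% of 7631 genes. The theca marker STAR was higher in HLO, with a log2 fold change of 0.96 (SE 0.43) and p-values of 0.0429 unadjusted and 0.828 adjusted in the same limma fit. The theca sum was 30.0, 18.0, 17.6, 26.5 and 25.4 FPKM in HLO and 14.7, 10.97, 17.3, 5.11 and 12.5 FPKM in LLO, without overlap. This sum is almost wholly STAR and adds no second marker, as INSL3 was listed at 0 and LHCGR reached 0.0460 over all samples. The endothelial marker KDR had a log2 fold change of 0.47 (SE 0.19), with p-values of 0.0300 unadjusted and 0.828 adjusted by limma. STAR and KDR were the sole markers of their lists tested. Of oocyte, granulosa, enterocyte and fibroblast markers 0 of 8, 0 of 2, 0 of 1 and 0 of 2 had an unadjusted p under 0.05 by limma, against 4.14% of all genes.

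Between HMO and LMO, SLC38A7 was the sole member of the 17 tested whose samples did not overlap, with every HMO value below every LMO value. Its mean was 0.933 FPKM in HMO and 2.78 in LMO, a ratio of 0.335, and the log2 fold change was -0.91 (SE 0.25). In limma's moderated test its unadjusted p was 0.00282 and its Benjamini-Hochberg adjusted p 0.210, so it did not pass the adjustment over all genes. SLC6A4 had a log2 fold change of -0.81 (SE 0.34), with p-values of 0.0311 unadjusted and 0.532 adjusted in limma's test. Of 17 members tested, 0 had an adjusted p under 0.05, against 0.0715% of 8390 genes, and 2 (11.8%) an unadjusted p under 0.05, against 8.67%. The members' median log2 fold change was -0.08 and that of all genes -0.07. Groups did not overlap for 1 of 17 members, SLC38A7, or 5.88%, against 1.7% of all genes. Among the 40 members too low to be tested here, SLC38A2 did not overlap either, at 0.123 to 0.532 FPKM in HMO and 0 to 0.108 in LMO. That is 1 of 40, or 2.5%, against 0.741% of the 12953 genes too low to be tested. Genes at 0 in every sample of the comparison cannot differ in this way. Without them it is 1 of 34, or 2.94%, against 1.26% of 7631 genes. With limma's array weights, SLC38A7, SLC7A2, SLC6A4 and SLC7A8 had an adjusted p under 0.05, among 1011 of all genes, or 12.1%. STAR, the sole theca marker above the floor, was lower in HMO as SLC38A7 was, with a log2 fold change of -1.04 (SE 0.31) and p-values of 0.00509 unadjusted and 0.265 adjusted by limma. The theca sum, almost wholly STAR and so no second marker, was 8.56, 15.6, 9.86, 13.3 and 14.2 FPKM in HMO and 22.5, 39.0, 19.8, 25.1 and 26.0 FPKM in LMO, without overlap. EPCAM, the enterocyte marker above the floor, had a log2 fold change of 0.56 (SE 0.19), with p-values of 0.0114 unadjusted and 0.366 adjusted in the same limma fit. Of oocyte, granulosa and fibroblast markers 0 of 8, 0 of 3 and 0 of 2 had an unadjusted p under 0.05 by limma, against 8.67% of all genes. INSL3 was at 0 in all of these samples, and the part of other cells in the difference was not tested.

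Between HSO and LSO, no member passed the test. Of 20 members tested by limma, 0 had an adjusted p under 0.05, against 0.0119% of 8376 genes, and 0 an unadjusted p under 0.05, against 4.41%. The median log2 fold change was 0.02 for the members and -0.01 for all genes. Groups without overlap were found for 0 of the 20 members tested and 2.05% of all genes. Among the 37 members too low to be tested here, SLC6A20 did not overlap, at 0.0403 to 0.222 FPKM in HSO and 0.441 to 0.805 in LSO. Nor did SLC6A12, at 0.0379 to 0.0633 FPKM in HSO and 0.0934 to 1.79 in LSO. These are 2 of 37, or 5.41%, against 0.887% of the 12967 genes too low to be tested. Without genes at 0 in every sample of the comparison they are 2 of 28, or 7.14%, against 1.5% of 7676 genes.

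Over all stages, with the stage as a covariate, no member passed the adjustment between the fertility groups. SLC7A14 had a log2 fold change of high over low fertility of 0.27 (SE 0.12), with p-values of 0.0372 unadjusted and 0.476 adjusted in limma's moderated test. Of 26 members, 0 had an adjusted p under 0.05, against 0.0103% of 9692 genes, and 2 (7.69%) an unadjusted p under 0.05, against 9.99%. KDR, 1 of 2 endothelial markers tested, had a log2 fold change of 0.25 (SE 0.09), with p-values of 0.0104 unadjusted and 0.424 adjusted in the same limma fit, and its part was not tested. The other marker lists had 0 genes with an unadjusted p under 0.05 by limma. Without LLO-4 and LSO-1 the number of members with an unadjusted p under 0.05 was 0, and without LMO-5 and LSO-5 it was 1.

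For the 3 follicle stages, fitted beside fertility, limma's F-test gave 0 of 26 members with an adjusted p under 0.05 and 0 with an unadjusted p under 0.05. The shares of all genes were 0% and 1.66%. The smallest unadjusted p of a member was 0.0688 in this test by limma. COL1A2, 1 of 2 fibroblast markers tested, and ZP2, 1 of 9 oocyte markers tested, had unadjusted p-values of 0.00521 and 0.0299 in this limma test. Neither passed limma's adjustment over all genes, and the other marker lists had 0 genes with an unadjusted p under 0.05.

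The fertility difference was then tested for a change between stages. By limma's interaction F-test, 0 of 26 members had an adjusted p under 0.05, against 0% of all genes, and 5 (19.2%) an unadjusted p under 0.05, against 7.89%. These were SLC38A11 (0.00669), SLC38A7 (0.00788), SLC7A7 (0.0160), SLC3A2 (0.0354) and SLC38A6 (0.0443), by limma, with adjusted p-values of 0.328 to 0.616. SLC38A11 was above 0.5 FPKM only in HMO-1, HMO-5, LLO-4, LSO-3 and LSO-4. It thus entered the test through its high samples, and no conclusion is drawn from its p-value or its place in the count. With a filter above 1 FPKM, SLC38A11 and SLC38A6 were not tested. In that setting 3 of 15 members (20%) had an unadjusted p under 0.05 by limma, against 7.85% of all genes. SLC38A6 stayed under an unadjusted p of 0.05 in 13 of 29 fits without a sample, and SLC3A2 in 19 of 29, with 0.0652 and 0.0689 under the median-of-ratios and quantile scalings by limma. SLC7A7 was at 0.166 without LLO-2 and LLO-5. For SLC38A7, SLC7A7 and SLC3A2 the mean was lower in HMO than in LMO and higher in HLO than in LLO. STAR had the same directions, but the other theca markers in the table were at or near 0. How many of all genes share these directions was not counted, and no cause was tested. In large follicles, SLC38A11 was at 0, 0, 0, 0.0199 and 0 FPKM in HLO and at 0.0881, 0, 0.0224, 1.05 and 0 FPKM in LLO. In medium follicles, SLC38A11 was at 0.640, 0, 0.358, 0.257 and 0.904 FPKM in HMO and at 0, 0, 0, 0 and 0.0410 FPKM in LMO. In small follicles, SLC38A11 was at 0.0220, 0.0212, 0.0196 and 0.0207 FPKM in HSO and at 0.224, 0, 0.765, 0.700 and 0.0411 FPKM in LSO. SLC38A11 was at or above 0.257 FPKM in 4 of 5 HMO samples and at or below 0.0410 in all LMO samples, and LLO-4, LSO-3 and LSO-4 were the other high samples. In large follicles, SLC38A6 was at 0.329, 0.382, 0.589, 0.188 and 0.282 FPKM in HLO and at 0.162, 0.203, 0.253, 1.93 and 0.410 FPKM in LLO. In medium follicles, SLC38A6 was at 1.17, 0.152, 0.467, 0.516 and 1.82 FPKM in HMO and at 0.0809, 0, 0.310, 0.181 and 0.167 FPKM in LMO. In small follicles, SLC38A6 was at 0.343, 0.295, 0.174 and 0.776 FPKM in HSO and at 0.625, 0.200, 0.633, 0.972 and 0.229 FPKM in LSO. SLC38A6 was highest in LLO-4 and HMO-5, and each of its high and low fertility groups overlapped. Markers of other cells also had an unadjusted p under 0.05 in the same limma test: STAR (0.00247), COL1A2 (0.0320), GJA1 (0.0400) and KDR (0.0445), of theca cells, fibroblasts, granulosa cells and endothelium, with adjusted p-values of 0.256, 0.565, 0.604 and 0.616. By list these were 1 of 1 theca, 1 of 2 fibroblast, 1 of 4 granulosa and 1 of 2 endothelial markers tested. Oocyte and enterocyte markers had 0 of 9 and 0 of 1, and the share of all genes was 7.89%. The markers' part in these results was not tested. Without LMO-5 and LSO-5 the number of members with an unadjusted p under 0.05 was 6. With limma's array weights, SLC38A11 had an adjusted p under 0.05, among 231 of all genes, or 2.38%. As it entered the test through its high samples, no conclusion is drawn from this call either.

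**Figure D3:**
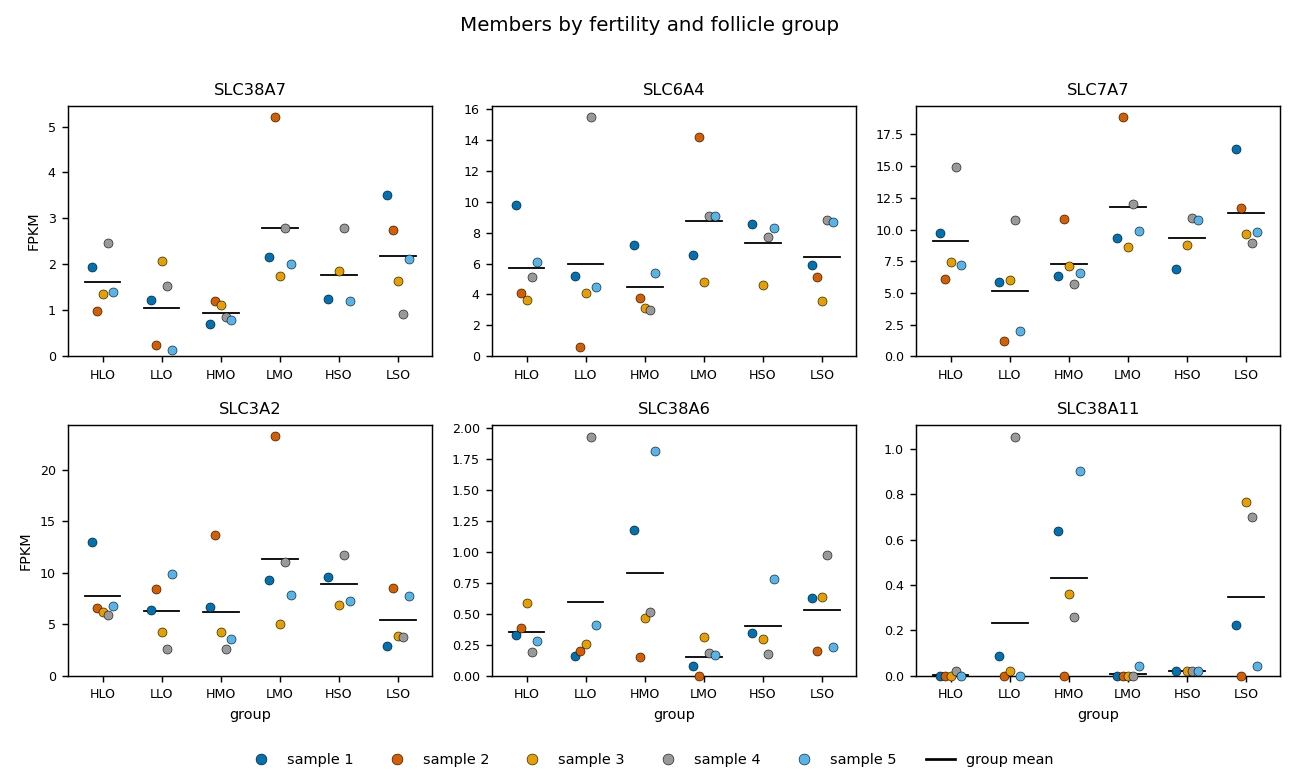
FPKM of SLC38A7, SLC6A4, SLC7A7, SLC3A2, SLC38A6 and SLC38A11 by group on linear axes from 0; each point is a sample, coloured by its number, and black lines are group means. SLC38A7 lies at 1.21 FPKM or less in HMO and at 1.74 or more in LMO, the sole pair of fertility groups without overlap among the members tested.

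The smallest p-values of the members were for the sample number, which the labels give without saying what it marks. By limma's F-test over 5 numbers with the group as a covariate, 9 of 26 members (34.6%) had a Benjamini-Hochberg adjusted p under 0.05, against 50.5% of all 9692 genes. The order of these shares turned with the scaling: it was 53.8% of members against 45.6% of all genes with median-of-ratios factors and 57.7% against 45.1% with quantile normalization. At an unadjusted p under 0.05 there were 11 members, or 42.3%, against 58% of all genes. The adjusted p-values by limma were 3.59e-05 for SLC7A6OS, 0.000148 for SLC7A6, 0.000252 for SLC38A9, 0.000794 for SLC7A3, 0.00137 for SLC7A2, 0.00194 for SLC38A8, 0.0187 for SLC7A11, 0.0218 for SLC7A8 and 0.0367 for SLC3A2. SLC6A5 and SLC43A3 passed without adjustment alone. The lowest, median and highest FPKM of SLC7A3 were 31.1, 43.3 and 57.0 in number 1, 1.42, 9.46 and 13.7 in number 2, 10.1, 14.1 and 17.4 in number 3, 9.22, 39.7 and 92.5 in number 4 and 6.82, 56.2 and 78.3 in number 5. Numbers 2 and 3 were low and number 1 high without overlap, while numbers 4 and 5 each spanned both levels, with HLO-4 and LLO-5 low.

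The medians of the numbers 1 to 5 were 31.3, 7.28, 3.13, 16.5 and 22.2 FPKM for SLC7A6OS and 4.56, 1.39, 1.77, 4.51 and 6.33 FPKM for SLC7A6. For SLC38A9 they were 5.18, 1.41, 1.68, 3.24 and 6.45 FPKM, for SLC7A2 0.672, 0.321, 0.575, 0.978 and 1.5 FPKM and for SLC38A8 0.987, 0.562, 0.142, 0.448 and 1.20 FPKM. All 5 of these genes had their lowest median in number 2 or 3 and their highest in number 1 or 5. The heavy chain and its light chain SLC7A8 ran otherwise, with medians of 7.96, 8.50, 4.62, 4.85 and 7.48 FPKM for SLC3A2 and 1.49, 2.84, 1.64, 1.60 and 2.92 FPKM for SLC7A8. SLC3A2 had its highest median in number 2, and SLC7A8 in number 5 with number 2 next. SLC7A11 had medians of 2.98, 1.81, 3.03, 3.54 and 3.31 FPKM, the lowest in number 2. The oocyte markers GDF9, ZP4, ZAR1, ZP3 and BMP15, the fibroblast marker DCN, the granulosa marker GJA1 and the endothelial marker VWF also had an adjusted p under 0.05 by limma over the sample numbers. By list these were 5 of 9 oocyte, 1 of 2 fibroblast, 1 of 4 granulosa and 1 of 2 endothelial markers tested. Theca and enterocyte markers had 0 of 1 each, and the share of all genes was 50.5%. The markers' part in the members' differences was not tested.

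Other genes that sense or use amino acids were read from 5 lists. Of genes for mTORC1 amino acid sensing, LAMTOR4, LAMTOR5 and LAMTOR2, parts of the complex that holds mTORC1 regulators on the lysosome, were highest, with medians of 325, 204 and 179 FPKM. In the GCN2 and ATF4 response to lack of amino acids, DDIT3, PSPH and ATF4 had medians of 167, 90.9 and 53.1 FPKM. Of the genes for glutathione and glycine use, GGCT, GCLC and DLD had 7.06, 5.96 and 2.10 FPKM. Of a list of amino acid transporters outside the 7 families and a protein that assists them, SLC15A4, a lysosomal histidine and peptide transporter, SLC17A8, a vesicular glutamate transporter, and TMEM27 (collectrin), the assisting protein, had medians of 14.6, 3.15 and 0.958 FPKM. Of the connexins, which form gap junctions, GJC1, GJA4 and GJA1 had 5.88, 1.11 and 0.585 FPKM. LAMTOR5, ASNS and GATSL2 each name more than 1 row of the table, so their values are uncertain.

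In the fertility, stage and interaction tests, 0 genes of any list had an adjusted p under 0.05 by limma. At an unadjusted p under 0.05, the mTORC1 list had 0 of 25 genes in HLO against LLO, 2 of 23 in HMO against LMO and 2 of 24 in HSO against LSO, where the shares of all genes were 4.14%, 8.67% and 4.41%. The GCN2 list had 0 of 9, 1 of 9 and 0 of 9, the glutathione list 0 of 5, 0 of 5 and 1 of 4, the other transporters 0 of 6, 2 of 5 and 0 of 5, and the connexins 0 of 4, 0 of 5 and 0 of 3. Both of the other transporters in HMO against LMO were lower in HMO. For high against low fertility over all stages the unadjusted counts were 2 of 28, 0 of 10, 1 of 7, 0 of 7 and 1 of 5 in the same order of lists, against 9.99% of all genes. They were 1, 0, 0, 0 and 0 for follicle stage, against 1.66% of all genes, and 1, 3, 0, 2 and 1 for the interaction, against 7.89%.

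Over the sample numbers, 19 of 28 mTORC1 genes had an adjusted p under 0.05 by limma, against 50.5% of all genes: RRAGA, SEH1L, WDR59, MIOS, LAMTOR1, CASTOR1, SEC13, NPRL2, LAMTOR5, RHEB, SESN1, TSC1, GATSL2, MTOR, RRAGD, RPTOR, LAMTOR3, SESN3 and LAMTOR2. So had 6 of 10 genes of the GCN2 list, EIF2AK4, PSPH, EIF2S1, CHAC1, PSAT1 and GCN1, and 4 of 7 of the glutathione list, SHMT1, DLD, GCLM and GGCT. Of the list with the other transporters 4 of 7 had, the assisting protein TMEM27 and CTNS, SLC15A4 and MFSD12, and of the connexins 3 of 5, GJA1 and GJB5 among them.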

How the data were processed

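RNA was sequenced from 29 samples of goat oocytes. After alignment to a goat genome, the authors used uniquely matched reads without picard-marked duplicates. Cufflinks with the Ensembl annotation gave the deposited FPKM. The aligner and the genome build are not given in the sources used here. Column names gave the samples, and 1 column without a matching sample was not used. FPKM are not counts, and no read depth was used here.

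The members and the gene lists were chosen with earlier results of these data known. Values were transformed as log2(FPKM + 1), and genes above 0.5 FPKM in at least 4 samples of a comparison were tested with limma 3.58.1 in R 4.3.3, using a moderated test with a trend. P-values were from two-sided or F-tests and adjusted by Benjamini-Hochberg over all genes tested, whatever their list. HLO was compared with LLO, HMO with LMO and HSO with LSO, each in its own samples. All samples were used for high against low fertility with stage as a covariate, for stage with fertility as a covariate, for their interaction, and for the sample number with the group as a covariate. Values of every sample are given for the 8 members of highest median, for members with an adjusted p under 0.05, and for members with an unadjusted p under 0.05 in a fertility comparison. The values of SLC38A6 and SLC38A11 were added after they were seen. Of each pathway list the 3 genes of highest median are named, with those at an adjusted p under 0.05. Some genes that meet these rules are not reported here. The fits were tested on simulated data, and no result of that test is given here. Alternatives were another pseudocount, other filters, array weights, quantile normalization or median-of-ratios factors, a replicate block, 1 fit over all samples and leaving out each sample.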

Additional observations from a re-analysis of the deposited data

Results flagged for a closer look

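Each of 25 members above the floor, and the sum of all members, was examined in each group for a sample whose gap to its nearest neighbour took up most of the group's range (Dixon's ratio). Of 156 such sets of samples 22 held one, where chance alone picks out about 1 in 20 groups of normally distributed values, which FPKM need not be. Of these 21 were the highest and 1 the lowest of their group.

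HMO-2 stood above its group for SLC6A5 (22.5 FPKM, the next sample at 11.6), SLC7A7 (10.9, next 7.08) and SLC7A8 (2.84, next 1.17). LLO-4 did so for SLC38A6 (1.93 FPKM, next 0.410), SLC6A20 (1.35, next 0.176), SLC1A5 (2.84, next 0.237) and SLC38A11 (1.05, next 0.0881). LSO-1 was far above the other LSO samples for SLC7A10 (5.38 FPKM, next 0.764) and SLC1A5 (5.38, next 0.860). HLO-1 was high for SLC3A2 (13.0 FPKM, next 6.79) and SLC6A8 (0.917, next 0.302), and low for SLC3A1 (1.11, next 1.52). LMO-2, the sample with the lowest total FPKM, was high for SLC6A11 (1.67 FPKM, next 0.614) and SLC43A3 (1.87, next 0.458).

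Single values stood out in other samples. SLC38A9 was at 23.4 FPKM in HSO-5 (next 4.92) and SLC6A5 at 22.4 in LMO-4 (next 15.0). SLC36A4 was at 0.979 FPKM in HMO-5 (next 0.430) and at 0.623 in LSO-5 (next 0.419). SLC43A3 reached 0.517 FPKM in LSO-2 (next 0.173) and SLC1A5 0.959 in HLO-5 (next 0.187). SLC38A11 was at 0.0199 FPKM in HLO-4 and at 0.0410 in LMO-5, with the other samples of those groups listed at 0, so that any value above 0 would stand out.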

How the results depend on the processing

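Counts of members at an unadjusted p under 0.05 were small and moved with the settings, all fitted with limma, and the shares of all genes under 0.05 in the same setting, given in brackets, moved too. For HLO against LLO the count of 0 became 1, SLC7A7, with median-of-ratios factors (5.99%), a replicate block (8.21%) or 1 fit over all samples (10.6%), and 0 to 1 when each sample was left out, with 1 without LLO-3 or LLO-4. For HMO against LMO the count of 2 became 9 with no filter (8.13%), where 51 members were tested, 7 with array weights (39.8%) and 6 in 1 fit over all samples (7.69%). Leaving out samples gave 1 to 5, with 1 without HMO-3, HMO-4, LMO-4 or LMO-5, 4 without HMO-2 and 5 without LMO-3. At an adjusted p under 0.05 its count of 0 became 4 of 17 (23.5%) with array weights, where 12.1% of all genes passed. For HSO against LSO the count of 0 became 2 with no filter (4.63%), 1 with array weights (8.11%), median-of-ratios factors (5.31%), quantile normalization (5.19%) or 1 fit over all samples (4.96%), and 0 to 3 without single samples, with 1 without LSO-2 and 3 without LSO-5. For high against low fertility the count of 2 became 4 with no filter (7.98%), 1 with a filter above 1 FPKM (10.4%), 0 with median-of-ratios factors (10.4%) and 5 with array weights (33.8%). It was 1 to 3 without single samples, with 1 without HLO-2, HLO-4, HMO-3, HMO-4, any HSO sample, LLO-2, LLO-4, LLO-5, LMO-2, LMO-4 or LSO-1. Of the alternatives chosen after seeing the data, leaving out LMO-5 and LSO-5 gave 1 and leaving out LLO-4 and LSO-1 gave 0. For follicle stage the count of 0 became 1 with array weights (8.43%) and 0 to 2 without single samples, with 1 without HLO-1, HLO-4 or HSO-5 and 2 without LLO-4. For the interaction the count of 5 became 9 with no filter (6.97%), 3 with a filter above 1 FPKM (7.85%) and 9 with array weights (16.7%), which gave 1 at an adjusted p under 0.05 (2.38% of all genes). That 1 was SLC38A11, which passed the floor through its high samples. Without single samples the interaction count was 3 to 8, with 3 without HSO-1, LSO-1 or LSO-3 and 8 without LLO-4. For the sample number, the 9 members at an adjusted p under 0.05 became 14 with median-of-ratios factors, 15 with quantile normalization and 17 with array weights, where 45.6%, 45.1% and 79.5% of all genes passed against 50.5%, and 7 to 11 without single samples. The 11 at an unadjusted p became 14 and 16 with the same scalings (55.1% each), 17 with array weights (81.3%) and 8 to 12 without single samples. The members' share of adjusted calls was thus above that of all genes with both scalings and, at 60% against 55.5%, with a filter above 1 FPKM, and below it with no filter, a pseudocount of 0.1 or array weights. Except for filters, which change the genes tested, the cause was not tested.

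SLC38A7 in HMO against LMO kept its direction and an unadjusted p under 0.05 in all 10 fits without a sample (log2 fold change -1.01 to -0.71) and in all 8 other settings (-1.39 to -0.78). SLC6A4 kept its direction, with an unadjusted p under 0.05 in 4 of 10 fits without a sample and 7 of 8 other settings. SLC7A14, over all stages, also kept its direction in the settings in which it was tested, with an unadjusted p under 0.05 in 17 of 29 fits without a sample and 5 of 10 other settings. In the interaction, SLC38A11, SLC38A7 and SLC7A7 kept an unadjusted p under 0.05 in all 29 fits without a sample, SLC3A2 in 19 and SLC38A6 in 13, the highest being 0.0952 for SLC3A2 without LMO-2 and 0.130 for SLC38A6 without HMO-5. In other settings SLC3A2 kept it in 7 of 10, SLC7A7 in 9 of 10, SLC38A7 in 10 of 10, and SLC38A11 and SLC38A6 in 9 of 9, where the last 2 were tested. SLC38A11 entered the test through its high samples, so no conclusion is drawn from its counts of fits. The median log2 fold change of the members moved: in HLO against LLO 0.05 became -0.10 with array weights, where that of all genes was -0.26. In HMO against LMO -0.08 became 0.01 with no filter, -0.25 with a pseudocount of 0.1 and -0.58 with array weights, where that of all genes was -0.32.

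With a replicate block for the sample number, the counts at an unadjusted p under 0.05 were 1 for HLO against LLO, 5 for HMO against LMO, 1 for HSO against LSO, 2 for high against low fertility, 0 for stage and 10 for the interaction. The shares of all genes were 8.21%, 16.4%, 9.41%, 15.1%, 2.86% and 14.5%, with 0 members at an adjusted p under 0.05 in each, against 1.51% of all genes for HMO against LMO, 0.722% for the interaction and at most 0.0120% in the others. The labels do not say that the numbers pair samples, and not every pair correlated: deviations of same-numbered samples correlated at -0.07 to 0.54 in large, -0.43 to 0.67 in medium and -0.51 to 0.74 in small follicles, lowest for number 4 in each. The correlation was above 0.1 in 10 of 14 pairs, and 7 of 14 high fertility samples correlated best with their own number. The main fertility, stage and interaction fits left the number out, as the labels do not say that it pairs samples. These correlations do not settle whether it does. Even so, 50.5% of all genes had an adjusted p under 0.05 over the sample numbers by limma's F-test. No read depth was used here, so how far depth limits the low members was not tested.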
